A study of Mus musculus with 6 samples.

Results

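Vasoactive hormones act on smooth muscle through receptors on the cell surface, and 51 genes of this system were examined here: 46 receptor genes, 3 genes for hormone precursors (Agt, Edn1 and Nppb) and 2 for processing enzymes (Ace and Ece1). They were taken from the gene table by symbol, and all 51 were found. P2ry14 stood there under 2 Gene IDs, so the set covers 52 of the 27179 genes listed. Polyadenylated RNA had been sequenced from primary vascular smooth muscle cells of the mouse aorta, in 3 libraries labelled Bmal1 KO and 3 labelled WT, all in 1 labelled batch. Bmal1 encodes a core transcription factor of the circadian clock. Both groups had spent 7 days in the same diabetic condition medium, serum-containing DMEM with added glucose at 4.5 g/L and hydrogen peroxide at 0.3 mM, so the only difference between groups that the labels give is the genotype. Neither the kind of deletion (whole body or in smooth muscle), nor the age or sex of the mice, nor whether replicates came from separate animals or cultures is given. P-values therefore measure only the spread between these libraries, which may be technical.

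Receptors that couple to the G proteins Gq and G11 release calcium from internal stores and contract smooth muscle, as do those for angiotensin II, thromboxane and noradrenaline at alpha-1 sites. Receptors that couple to Gs raise cyclic AMP, and the natriuretic peptide receptors NPR-A and NPR-B make cyclic GMP, and both messengers relax the muscle. Receptors that couple to Gi lower cyclic AMP.

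The libraries labelled Bmal1 KO held 32503525 to 38074293 assigned reads and the WT libraries 39129037 to 44657471. The targeted gene went against the labels: Bmal1 (listed as Arntl) stood at 1036, 941 and 1036 normalized counts where the label is Bmal1 KO, against 529, 619 and 590.4 in WT. These are counts over the whole gene, which cannot show a missing exon. The groups are therefore called KO-labelled and WT here. Sex-linked genes also separated the groups: Xist, of the inactive X chromosome, stood at 3842 to 3887 in KO-labelled libraries against 12.4 to 89.9 in WT, and 4 Y-linked genes at 16.8 to 124 against 588 to 3314. A difference in sex and the labelled genotype therefore cannot be told apart in any result here. Smooth muscle markers summed to 148203 to 157653 against 52403 to 58423, and 9 of 10 rose, but Myh11, the mature smooth muscle myosin, had only 259 to 291 against 14.9 to 68.2. No marker of any other cell type examined was at 0 in all libraries. Endothelial markers summed to 1073 to 1404 in KO-labelled libraries and 768 to 892 in WT (7 of 10 rose, 1 fell). Schwann and neural markers summed to 4533 to 4826 against 1073 to 1765 (7 of 10 rose, 3 not tested). Macrophage markers summed to 2411 to 2909.6 against 3601 to 4169 (7 of 10 rose, 2 fell, 1 not tested). Fibroblast markers summed to 40059.8 to 41711 against 45241 to 46807 (5 of 10 rose, 5 fell), and mesothelial markers to 8209 to 12093 against 4035 to 5204 (4 of 8 rose, 4 fell). Of all genes tested, 36.2% rose and 34.9% fell, so these counts describe the lists only. The part of these cell types in the results was not tested. WT replicate 2 was the lowest WT library for 78.3% of the genes with a log2 fold change between 2 and 3. It was also the lowest WT library for 8 members that rose (Agtr1b, Adra2a, Adrb1, Adora1, Adora2a, Adora2b, Vipr1 and Oxtr), and all 8 passed without it.

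Most of the receptor genes that differed were higher in KO-labelled libraries. Of the 52 rows, 44 had a normalized count of at least 10 in at least 3 libraries and were tested with limma over 16086 genes. At a Benjamini-Hochberg adjusted p under 0.05, 27 rose, 10 fell and 7 did not pass. These counts describe the set only, since 71.1% of all genes tested passed, 36.2% upward and 34.9% downward. The median log2 fold change was 0.61 over the 44 members and -0.012 over all genes tested. Agtr1b, Oxtr and Nppb were tested only because of 1 group, as all 3 libraries of the other group were under 10. A difference of at least 3-fold between group means was found for 11 members that rose and 3 that fell, where the same rule took 15.2% and 6.30% of all genes tested. At least 10-fold differences were found for 8 members, against 3.85% of all genes tested. Agtr1b, Oxtr and Nppb are among both the 3-fold and the 10-fold members, and the filter set their direction. By edgeR 26 members rose and 10 fell (71.4% of all genes passed), and by DESeq2 27 and 10 (70.0%). The libraries of the groups did not overlap for 38 of the 44, against 76.7% of all genes tested.

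**Figure D1:**
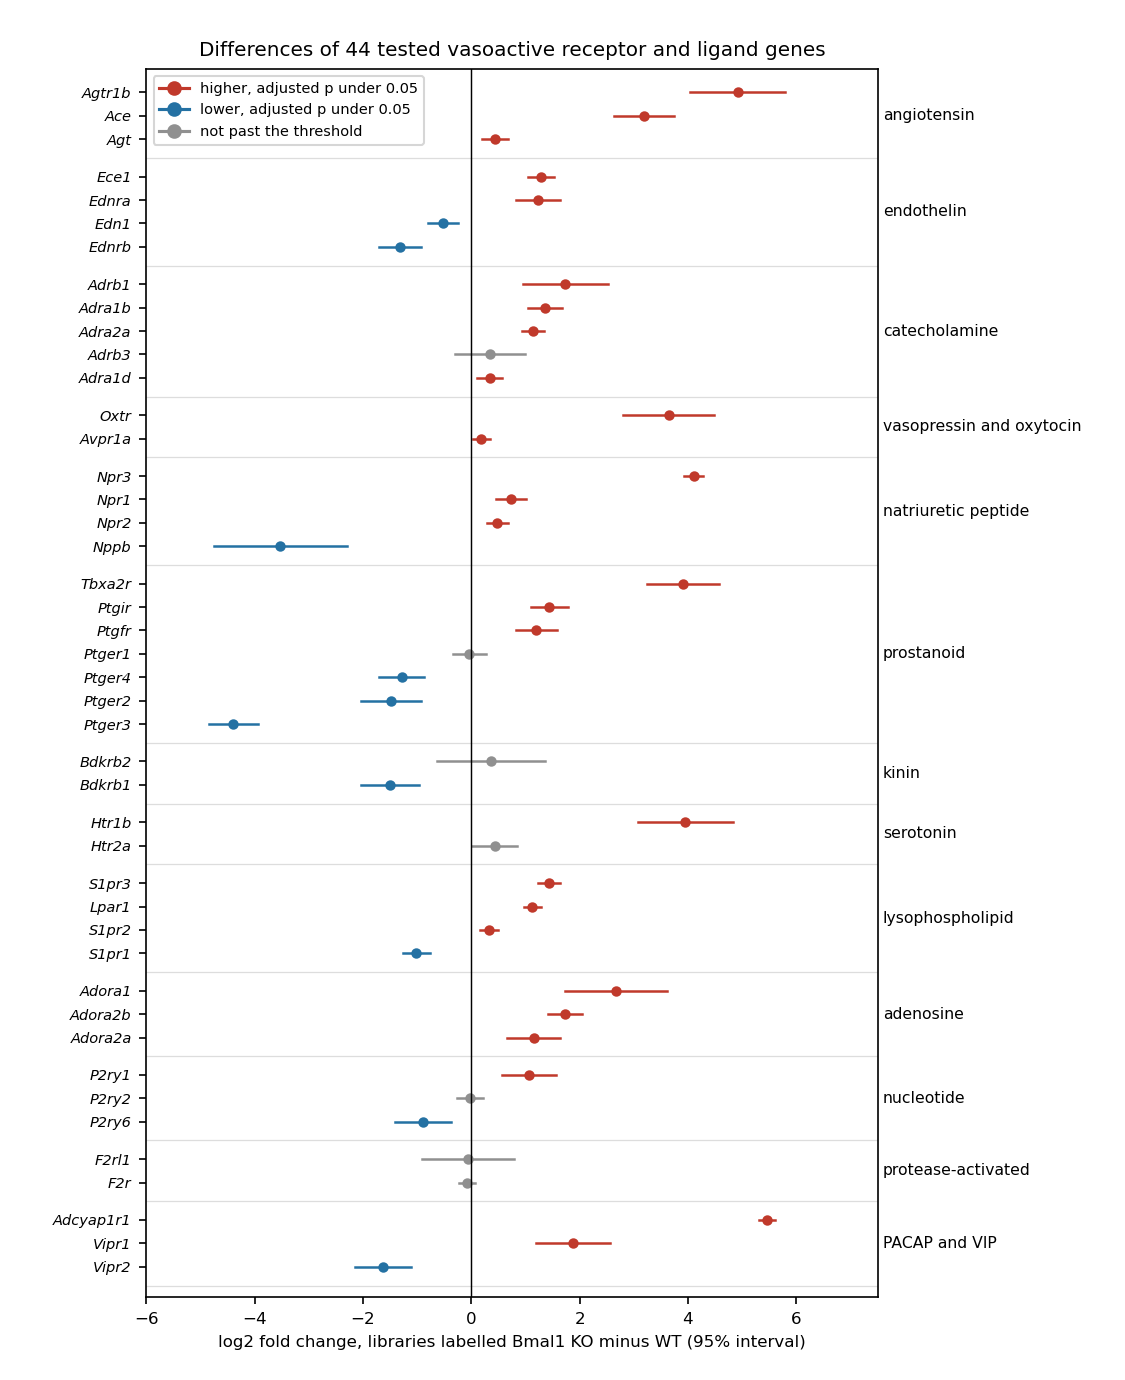
Log2 fold change of each of the 44 tested members (KO-labelled minus WT, horizontal axis) with its 95% interval, grouped by hormone family, 3 libraries a group. Adcyap1r1 (5.46) stands farthest to the right and Ptger3 (-4.39) farthest to the left, and the endothelin, prostanoid, lysophospholipid and PACAP and VIP families hold members on both sides.

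**Figure D2:**
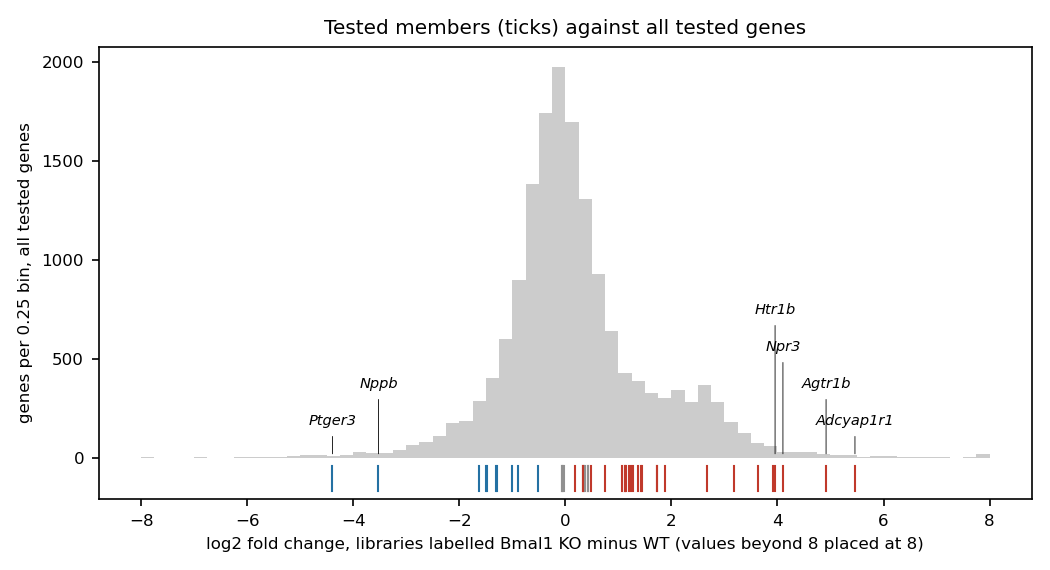
Histogram of log2 fold changes (KO-labelled minus WT) of all 16086 tested genes in grey, with the 44 members as ticks below (red rose, blue fell, grey did not pass). The members lie mostly right of 0, and the grey histogram has a shoulder between 2 and 3.

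BMAL1 with its partner CLOCK binds E-boxes, so the promoters were searched for the E-box CACGTG, which reads the same on both strands. RefSeq windows (GRCm38.p6, the mm10 build) from 250 bases before to 50 after an annotated start were held for 41 of the 51 genes, as 54 windows. The E-box stood in 5 of the 54 windows (9.26%), against 7.15% of 32851 windows of all genes. It belonged to Adra2a, Ece1, Oxtr and P2ry2, where both P2ry2 windows hold the same site. Ece1 had several windows, and only the one starting at 137913308 held it. The cyclic AMP response element TGACGTCA was found in S1pr2 alone, in 1 of 54 windows (1.85%) against 1.79% of all windows, and the CArG box in none of them against 1.63%. No member window held more than 1 of these motifs. A match describes letters only, not a bound site. The 4 windows with an E-box follow, since the study concerns an E-box factor, each read 5′ to 3′ on the gene's strand with the motif in capitals.
Adra2a, chr19:54045009-54045308, plus strand: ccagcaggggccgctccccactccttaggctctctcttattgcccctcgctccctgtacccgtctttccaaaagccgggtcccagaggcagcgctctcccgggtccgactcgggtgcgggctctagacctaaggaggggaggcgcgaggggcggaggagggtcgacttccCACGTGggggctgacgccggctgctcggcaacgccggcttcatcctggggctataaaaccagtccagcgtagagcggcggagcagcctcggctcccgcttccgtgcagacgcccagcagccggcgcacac
Ece1, chr4:137913308-137913607, plus strand: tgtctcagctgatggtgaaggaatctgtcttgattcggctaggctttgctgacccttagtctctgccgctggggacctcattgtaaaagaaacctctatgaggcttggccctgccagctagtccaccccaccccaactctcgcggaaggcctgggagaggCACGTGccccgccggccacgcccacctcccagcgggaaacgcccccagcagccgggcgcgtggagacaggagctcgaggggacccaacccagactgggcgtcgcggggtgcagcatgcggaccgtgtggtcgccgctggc
Oxtr, chr6:112489776-112490075, minus strand: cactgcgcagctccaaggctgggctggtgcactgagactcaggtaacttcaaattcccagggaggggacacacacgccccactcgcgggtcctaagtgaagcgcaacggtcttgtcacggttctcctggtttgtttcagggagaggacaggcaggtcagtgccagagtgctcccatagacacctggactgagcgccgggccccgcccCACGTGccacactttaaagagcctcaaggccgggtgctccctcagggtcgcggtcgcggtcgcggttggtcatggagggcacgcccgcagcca
P2ry2, chr7:101011949-101012248, minus strand: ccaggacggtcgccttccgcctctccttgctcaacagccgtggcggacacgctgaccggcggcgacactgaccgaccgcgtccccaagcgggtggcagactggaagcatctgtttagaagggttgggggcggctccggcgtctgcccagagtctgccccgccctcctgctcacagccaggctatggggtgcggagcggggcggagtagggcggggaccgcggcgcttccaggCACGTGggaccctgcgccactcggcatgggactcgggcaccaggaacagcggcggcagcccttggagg
The E-box begins at -80, -90, -43 and -18 in these windows, in the order shown, counted from the start base as 0. Of these 4 genes, Adra2a, Ece1 and Oxtr rose and P2ry2 did not pass, as described with their families. Of the tested members 61.4% rose, and of all genes tested 36.2%. A link between the motif and a rise was not tested. For comparison, the windows of the genes with the largest rise and the largest fall in log2 fold change hold none of the 3 motifs.
Adcyap1r1, chr6:55451728-55452027, plus strand: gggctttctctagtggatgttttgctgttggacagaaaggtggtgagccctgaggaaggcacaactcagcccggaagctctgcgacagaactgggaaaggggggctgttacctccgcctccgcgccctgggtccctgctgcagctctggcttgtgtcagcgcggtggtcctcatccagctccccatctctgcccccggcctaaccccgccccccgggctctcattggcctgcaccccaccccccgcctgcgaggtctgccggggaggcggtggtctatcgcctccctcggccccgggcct
Ptger3, chr3:157566626-157566925, plus strand: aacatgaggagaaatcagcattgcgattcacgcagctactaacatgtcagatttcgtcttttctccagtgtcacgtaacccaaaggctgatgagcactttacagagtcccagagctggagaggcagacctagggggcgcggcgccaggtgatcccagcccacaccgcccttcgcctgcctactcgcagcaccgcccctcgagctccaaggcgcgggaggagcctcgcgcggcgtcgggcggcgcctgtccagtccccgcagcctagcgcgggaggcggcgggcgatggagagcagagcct

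PACAP and VIP are neuropeptides that relax vessels through Gs-coupled receptors, and the 3 receptor genes changed in different directions. Adcyap1r1, which encodes the PACAP receptor PAC1 (chromosome 6, 55451501 to 55501455), had 20876, 22734 and 20782 normalized counts in KO-labelled libraries, against 474, 507 and 477 in WT. The groups were far apart and replicates close, a 44.2-fold rise (log2 fold change 5.46, SE 0.0636, adjusted p = 3.20e-09 by limma with Benjamini-Hochberg adjustment, as for every adjusted p here). Vipr1, for the VPAC1 receptor that binds both peptides, had 115, 158 and 179 counts against 35.8, 29.9 and 58.0, and rose 3.66-fold (log2 fold change 1.88, adjusted p = 0.000721). Vipr2, for VPAC2, did the reverse, with 29.6, 36.0 and 32.0 counts in KO-labelled libraries against 82.5, 116 and 112 in WT, a 3.19-fold fall (log2 fold change -1.63, adjusted p = 0.000362). The Vipr1 to Vipr2 ratio per kilobase of exon was thus 3.00, 3.39 and 4.31 in KO-labelled libraries, against 0.333, 0.198 and 0.397 in WT. Of the ligand genes, Adcyap1 (PACAP) had 6.11, 48.0 and 33.1 counts against 9.17, 4.98 and 5.53 and was not tested, and Vip had 60.1, 110.3 and 113 against 25.7, 2.49 and 25.8 (log2 fold change 2.76, adjusted p = 0.0124). Both WT replicate 2 and KO-labelled replicate 1 were lowest in their groups for Vip. Without WT replicate 2 the log2 fold change of Vipr1 was 1.68.

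The natriuretic peptide genes separated the receptor that clears the hormone from those that signal. Npr3, for the clearance receptor that takes the peptides into the cell (chromosome 15, 11839896 to 11907837), had 5295, 5389 and 5142 counts in KO-labelled libraries, against 286, 299 and 334 in WT. It rose 17.2-fold (log2 fold change 4.10, SE 0.0779, adjusted p = 1.76e-08), with no overlap. The cyclase receptors rose less. Npr2, for NPR-B, the receptor of C-type natriuretic peptide, had 4244, 4505 and 4344 against 2818, 3508 and 3078 (1.39-fold, adjusted p = 0.00133), and Npr1, for NPR-A, averaged 313 ± 16.4 against 187 ± 12.1 (SD, n = 3 each, 1.67-fold). Per kilobase of exon, Npr3 stood at 0.620, 0.595 and 0.588 of Npr2 in KO-labelled libraries and at 0.0505, 0.0424 and 0.0540 of it in WT. Nppb, the precursor of B-type natriuretic peptide, was low throughout and fell, with 1.02, 0 and 1.14 counts in KO-labelled libraries against 22.0, 12.4 and 20.3 in WT (log2 fold change -3.52, adjusted p = 0.000571). This rests on 2 reads against 61, a WT to KO-labelled ratio of 24.3 with an exact 95% counting interval of 6.44 to 205. Intervals of this kind cover counting error only. Nppc, the precursor of C-type natriuretic peptide, had 15.6 to 18.3 counts against 7.34 to 10.1 (log2 fold change 0.96, adjusted p = 0.0327).

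Of the angiotensin genes, Agt had the most counts in both groups, and the receptors were scarce. Agt, for angiotensinogen, had 1843, 1912 and 1645 counts in KO-labelled libraries against 1352, 1489 and 1171 in WT, a 1.35-fold rise (adjusted p = 0.00611). Ace, for the enzyme that makes angiotensin II and breaks down bradykinin (chromosome 11, 105967948 to 105989964), had 728, 832 and 897 against 68.8, 77.1 and 131. The lowest KO-labelled library was far above the highest WT one, an 8.88-fold rise (log2 fold change 3.19, SE 0.237, adjusted p = 1.30e-05). Endothelium also expresses Ace. Of the 10 endothelial markers, 7 rose, among them Pecam1 (247, 218 and 327 against 32.1, 14.1 and 58.0) and Cdh5 (82.5, 52.8 and 112 against 12.8, 4.15 and 30.4). Egfl7 fell 2.46-fold (111, 199 and 198 against 461, 403 and 387), and Kdr and Erg did not pass. Of all genes tested, 36.2% rose and 34.9% fell, and the part of endothelial cells in the Ace result was not tested. Of the type 1 receptor genes, Agtr1b had 57.1, 80.3 and 57.1 counts against 1.83, 0.829 and 0.921 (log2 fold change 4.92, adjusted p = 1.58e-05). With 4 WT reads its ratio was 54.4, with a counting interval of 20.9 to 202. Agtr1a had 3.06, 4.80 and 9.14 against 4.59, 0.829 and 2.76 and was not tested, and Agtr2, for the type 2 receptor, had 1 read against 2. Agtr1a and Agtr1b are close copies, so the split of reads between them is uncertain. Ren1, for renin, had at most 1.02 counts in any library.

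The endothelin system shifted between its receptors. Ednra, for the receptor ETA, had 365, 410.0 and 362 counts in KO-labelled libraries against 126, 168 and 194 in WT, a 2.33-fold rise (log2 fold change 1.24, adjusted p = 0.000423). Ednrb, for ETB, a receptor also found on endothelium, had 109, 135 and 93.7 against 264, 276 and 293, a 2.46-fold fall (log2 fold change -1.31, adjusted p = 0.000248). Per kilobase of exon, Ednra was 2.61, 2.36 and 3.01 times Ednrb in KO-labelled libraries but 0.371, 0.473 and 0.517 times in WT. The hormone precursor gene Edn1 had 374, 409 and 339 against 603, 498 and 511, and fell 1.44-fold (adjusted p = 0.00496). Ece1, for the enzyme that releases active endothelin, is 1 of the 4 genes shown with an E-box, held by only 1 of its windows. It had 9303, 9728 and 9553 against 3311, 4375 and 4136, a 2.42-fold rise (log2 fold change 1.28, adjusted p = 1.96e-05). In bulk RNA, a change in the number of cells that express a gene and a change in RNA per cell cannot be told apart.

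**Figure D3:**
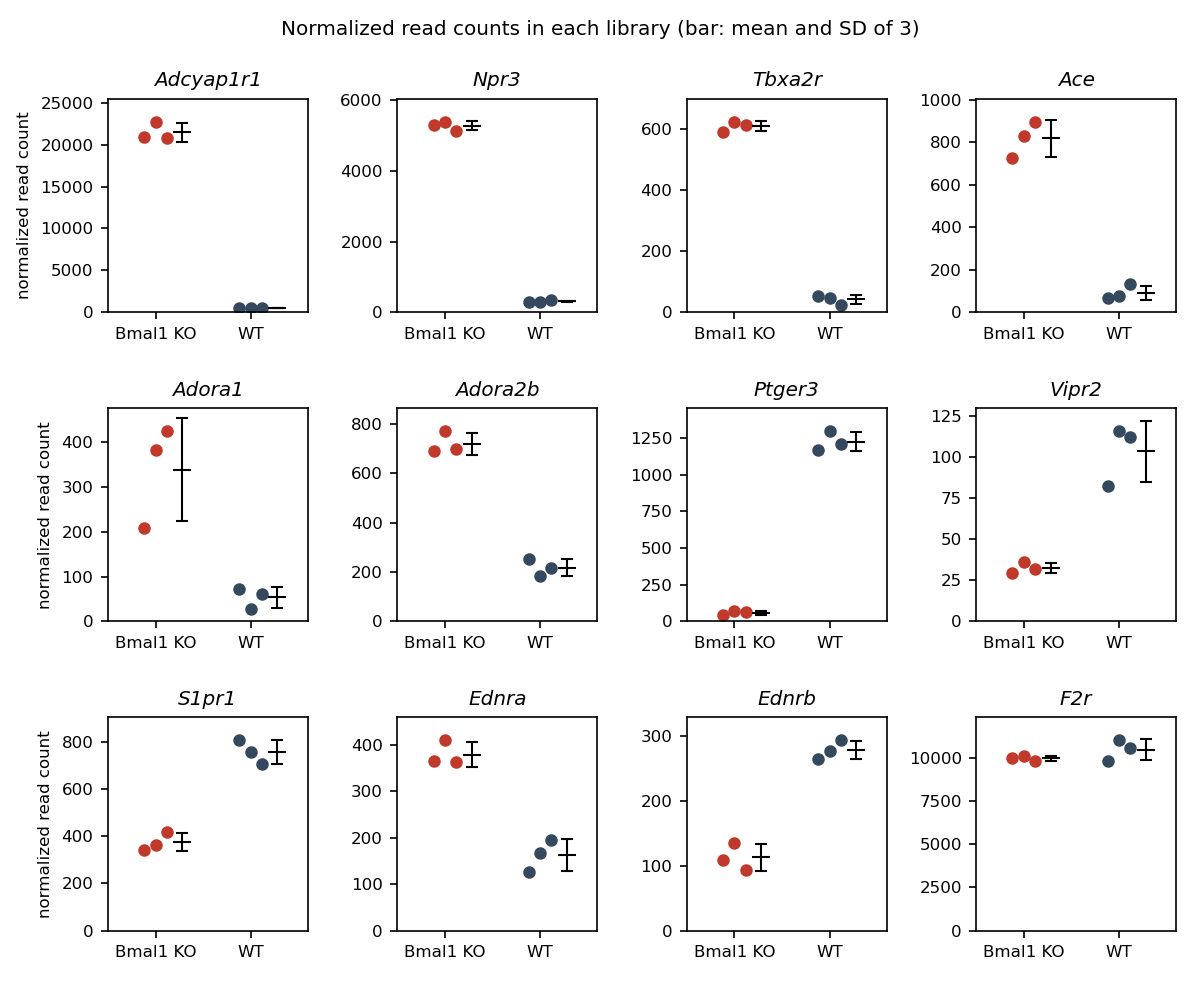
Normalized read counts (vertical axis, from 0) of 12 members in each KO-labelled library (red) and WT library (blue), with the mean and SD of 3 as a bar. Ptger3, Vipr2, S1pr1 and Ednrb are lower in the KO-labelled libraries, F2r overlaps between groups, and the other 7 are higher.

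Of the 7 adrenergic receptor genes, 5 were tested, of which 4 rose and 1 did not pass, where 36.2% of all genes tested rose and 34.9% fell. Adrb1, for the beta-1 receptor that raises cyclic AMP, had 96.8, 144 and 103 counts in KO-labelled libraries against 42.2, 19.9 and 43.3 in WT (3.26-fold, log2 fold change 1.73, SE 0.338, adjusted p = 0.00222). It was 1.38 on the log2 scale without WT replicate 2. Adra1b, for an alpha-1 receptor that contracts vessels, averaged 773 ± 32.0 against 304 ± 56.3 (SD, n = 3 each, 2.55-fold), and Adra2a, for a Gi-coupled alpha-2 receptor whose promoter is shown with its E-box, 935 ± 18.7 against 427 ± 32.4 (2.19-fold). Adra1d, for the alpha-1 receptor prominent in the rodent aorta, had 1102, 1146 and 1137 against 834, 1033 and 818 (1.26-fold, adjusted p = 0.0164). That call was lost without KO-labelled replicate 2 (adjusted p = 0.0540), KO-labelled replicate 3 (0.0520) or WT replicate 3 (0.0593), and ran from 0.00161 to 0.0593 over 16 alternatives. Adrb3, for the beta-3 receptor, had 49.9 to 88.0 against 41.4 to 53.1 and did not pass (log2 fold change 0.34, 95% interval -0.31 to 0.99). Adra1a had 30 reads against 1 and Adra2b 9 against 1, and neither was tested. Their count ratios were 37.7 (6.27 to 1538) and 11.3 (1.57 to 496).

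The vasopressin and oxytocin receptors are Gq-coupled relatives. Avpr1a, for the V1a receptor that contracts vessels, had 1873, 1926 and 1791 counts in KO-labelled libraries against 1554, 1738 and 1629 in WT, a 1.14-fold difference (log2 fold change 0.18, adjusted p = 0.0409). The call held in 7 of 16 alternatives, with adjusted p from 0.0140 to 0.165. It was lost without KO-labelled replicate 1 (0.107), 2 (0.139) or 3 (0.0622) and without WT replicate 1 (0.0571) or 3 (0.0920). With all libraries kept, it was also lost under TMM scaling, with no filter, by edgeR and by voom. Oxtr, for the oxytocin receptor, was low and rose, with 66.2, 79.1 and 80.0 against 4.59, 3.32 and 8.29 (13.9-fold, adjusted p = 6.12e-05). Without WT replicate 2 the rise was 11.7-fold.

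Prostanoid receptors split by ligand. The 4 genes for prostaglandin E2 receptors were lower or did not pass, while those for thromboxane, prostacyclin and prostaglandin F2 alpha rose. Ptger3, for the Gi-coupled EP3 receptor (chromosome 3, 157566821 to 157644758), had 41.8, 70.7 and 64.0 counts in KO-labelled libraries against 1168, 1299 and 1210.2 in WT. It fell 20.8-fold (log2 fold change -4.39, SE 0.197, adjusted p = 9.11e-07). The genes of the Gs-coupled, relaxing receptors EP2 and EP4 fell too, Ptger2 with 23.9 ± 3.13 against 68.5 ± 8.33 (2.86-fold) and Ptger4 with 52.3 ± 1.46 against 129 ± 15.6 (2.47-fold; SD, n = 3 each). Ptger1, for EP1, had 1859, 2110.2 and 2012 against 1681, 2455 and 2065 and did not pass (log2 fold change -0.037, 95% interval -0.34 to 0.27). The strand setting of the counts is not given, so its level is uncertain. Genes on the other strand share 24.9% of the exon bases of Adrb3, 15.3% of Ptger4 and 11.7% of Npr1. Tbxa2r, for the contracting thromboxane receptor (chromosome 10, 81328268 to 81335174), had 591, 623 and 613 against 54.1, 47.3 and 23.9, a 14.6-fold rise (log2 fold change 3.91, SE 0.285, adjusted p = 1.19e-05). Ptgir, for its relaxing counterpart, the prostacyclin receptor, averaged 199 ± 10.3 against 72.7 ± 4.10 (2.74-fold), and Ptgfr, for the prostaglandin F receptor, 169 ± 9.13 against 73.1 ± 7.85 (2.31-fold; SD, n = 3 each). Per kilobase, Tbxa2r was 5.28, 5.13 and 5.55 times Ptgir in KO-labelled libraries and 1.23, 1.11 and 0.610 times in WT.

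**Figure D4:**
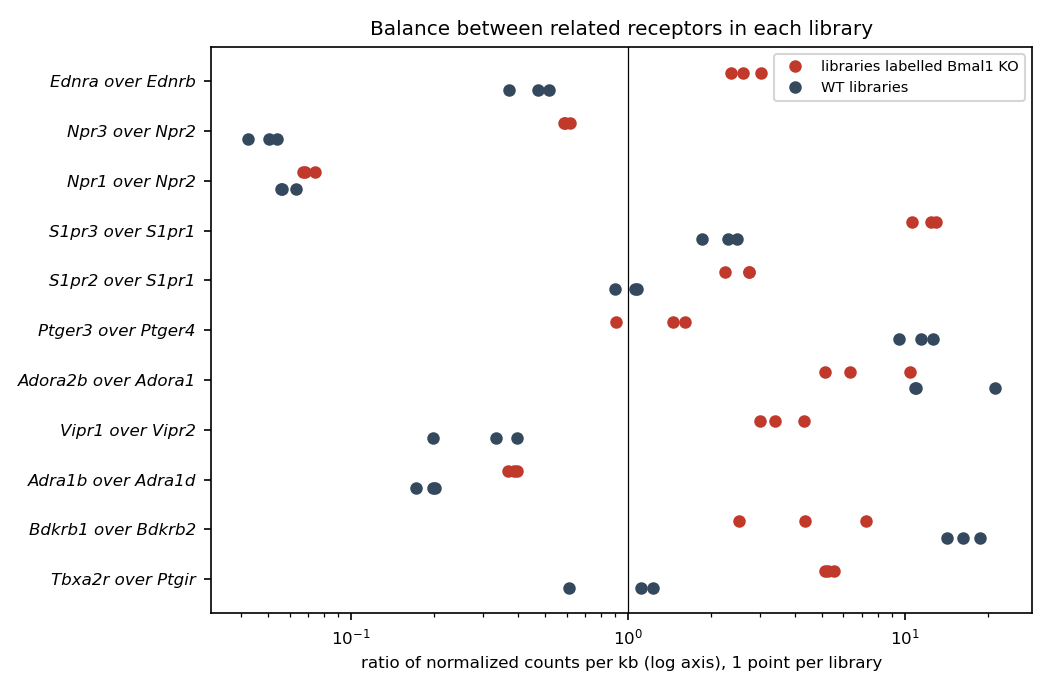
Ratio of normalized counts per kilobase of exon for 11 pairs of related receptors (horizontal log axis), 1 point per library, KO-labelled in red above WT in blue. The Ednra to Ednrb and Vipr1 to Vipr2 ratios lie right of 1 in the KO-labelled libraries and left of 1 in WT, while Npr1 to Npr2 lies between 0.0558 and 0.0741 in all 6.

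Kinin and serotonin receptors were mostly low. Bdkrb1, for the inducible bradykinin receptor B1, had 33.6, 26.4 and 24.0 counts in KO-labelled libraries against 84.4, 84.6 and 71.8 in WT and fell 2.87-fold (adjusted p = 0.00066). Bdkrb2, for the constitutive B2 receptor, had 9.59 to 25.1 against 10.1 to 15.8 and did not pass (log2 fold change 0.37, 95% interval -0.63 to 1.36). Htr1b, for a Gi-coupled serotonin receptor that contracts vessels, had 101, 149.9 and 143 against 4.59, 6.63 and 12.9, a 16.3-fold rise (log2 fold change 3.96, SE 0.382, adjusted p = 5.34e-05). An antisense gene overlaps 18.04% of its exon bases. Htr2a, for the main contracting serotonin receptor, had 393, 454 and 436 against 237, 363 and 367, with no overlap, and did not pass (log2 fold change 0.43, adjusted p = 0.0611). It passed without WT replicate 2 (adjusted p = 0.0392) or WT replicate 3 (0.0489), and ran from 0.0263 to 0.156 over 16 alternatives. Htr2b had 9 reads against 4 and was not tested.

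The sphingosine 1-phosphate receptors moved apart. S1pr3, which couples to several G proteins and contracts vessels, was among the most abundant members, with 6253, 6909.7 and 6522 counts in KO-labelled libraries against 2186, 2739 and 2384 in WT (2.69-fold rise, log2 fold change 1.43, adjusted p = 5.58e-06). S1pr2, another receptor of smooth muscle, averaged 2509 ± 84.6 against 1998 ± 130.5 (SD, n = 3 each, 1.26-fold, adjusted p = 0.00315). S1pr1, the Gi-coupled receptor best known in endothelium and lymphocytes, had 342, 364 and 419 against 806, 757 and 707, a 2.02-fold fall (log2 fold change -1.01, adjusted p = 9.22e-05). Of the endothelial markers given with Ace, 7 of 10 rose and 1, Egfl7, fell as S1pr1, Ednrb and Edn1 did. Of all genes tested, 36.2% rose and 34.9% fell. The part of endothelial cells in these results was not tested. The S1pr3 to S1pr1 ratio per kilobase was 12.5, 12.9 and 10.6 in KO-labelled libraries, against 1.85, 2.47 and 2.30 in WT. Lpar1, for a widely expressed lysophosphatidic acid receptor, averaged 3119 ± 96.8 against 1428 ± 80.0 (2.18-fold), and Lpar3 had 13 reads against 33 and was not tested.

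All 3 adenosine receptor genes of the set rose, where 36.2% of all genes tested rose and 34.9% fell. Adora2b, for the low-affinity Gs-coupled receptor of type 2B, had 689.9, 772 and 699 counts in KO-labelled libraries against 252, 184 and 216 in WT (3.32-fold, log2 fold change 1.73, adjusted p = 1.66e-05). Adora2a, for the relaxing receptor of type 2A, averaged 165 ± 27.1 against 74.1 ± 15.2 (SD, n = 3 each, 2.23-fold). Adora1, for the Gi-coupled A1 receptor, varied most between replicates, with 208, 384 and 425 against 72.5, 27.4 and 61.7 (6.29-fold, log2 fold change 2.68, SE 0.407, adjusted p = 0.000613). Its log2 fold change was 2.26 without WT replicate 2. Schwann and neural markers, which summed to 4533 to 4826 against 1073 to 1765, were also higher in KO-labelled libraries, and their part in the Adora1 result was not tested. Mybph on the other strand overlaps 20.1% of the Adora1 exon bases.

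Nucleotide receptors, which answer to extracellular ATP, ADP and UDP, showed no common direction. P2ry1, an ADP receptor, averaged 77.7 ± 7.13 counts in KO-labelled libraries against 36.7 ± 4.68 in WT and rose 2.12-fold, while P2ry6, a UDP receptor, averaged 140.3 ± 45.1 against 252 ± 20.1 and fell 1.80-fold (SD, n = 3 each, adjusted p = 0.00250 and 0.00781). P2ry2, an ATP and UTP receptor with the last of the E-boxes shown, had 553, 555 and 588 against 537, 655 and 542 and did not pass (log2 fold change -0.025, 95% interval -0.27 to 0.22). The rows of P2ry14 had 16 reads against 13 and 1 against 0 and were not tested. An antisense gene overlaps 23.1% of the P2ry1 exon bases.

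The thrombin receptor PAR1, encoded by F2r, had the most counts of the members in WT and did not pass the test. F2r had 9979, 10086 and 9847 counts in KO-labelled libraries against 9824, 11026 and 10583 in WT, with overlapping groups (log2 fold change -0.070, 95% interval -0.22 to 0.078, adjusted p = 0.347). F2rl1, for PAR2, had 57.1, 93.5 and 32.0 against 58.7, 56.4 and 58.9 and did not pass, with an interval of -0.91 to 0.79.

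Levels can be compared between genes only per length, here as normalized counts per kilobase of exon in the GENCODE annotation. By this measure Adcyap1r1 ranked 1 of the 51 genes in KO-labelled libraries and 19 in WT, Npr3 10 and 24, Tbxa2r 13 and 30, and F2r 2 and 1. Summed over the 46 receptors, the level was 14042 ± 431 in KO-labelled libraries and 7972 ± 527 in WT (SD, n = 3 each). Adcyap1r1 alone made up 23.1% ± 0.510 of that sum in KO-labelled libraries and 0.925% ± 0.0310 in WT. The 10 receptors that usually couple to Gs summed to 3854 ± 207 against 325 ± 19.4, and without Adcyap1r1 to 602 ± 41.5 against 251 ± 22.1. The 19 Gq-coupled receptors summed to 2682 ± 81.6 against 2001 ± 215, and the 7 Gi-coupled ones to 415 ± 41.2 against 564 ± 9.74. Without Ptger3 the other 6 Gi-coupled receptors summed to 404 ± 38.8 against 348 ± 16.9, with overlapping libraries. These sums describe RNA, were not tested, and follow their most abundant members.

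**Figure D5:**
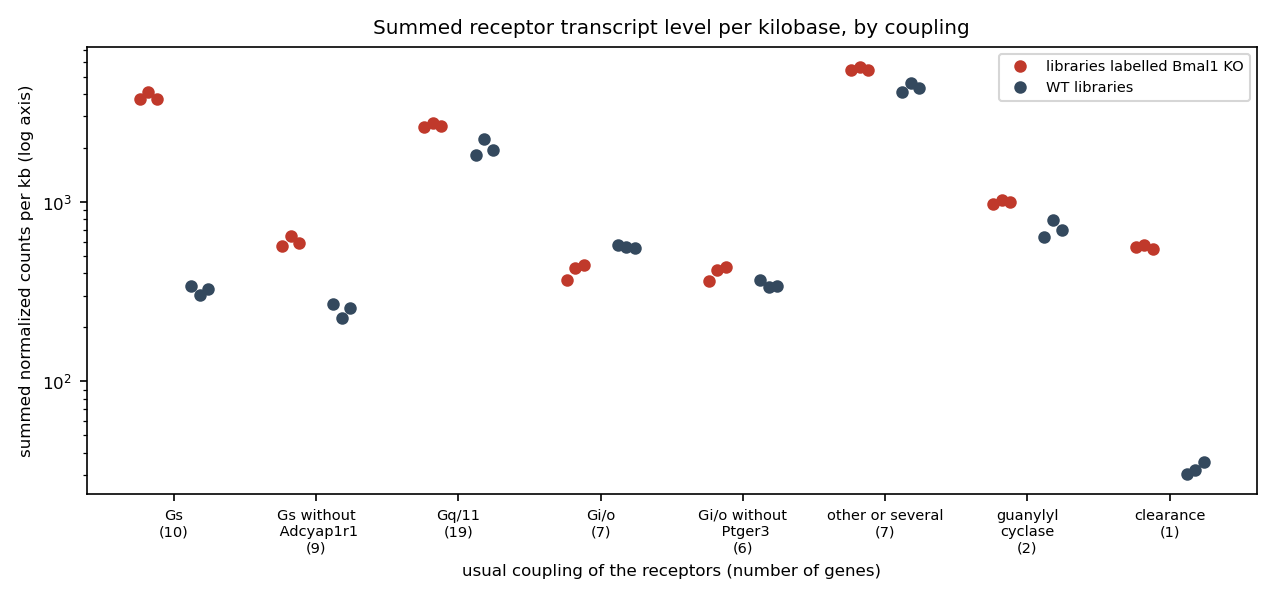
Summed normalized counts per kilobase of exon (log axis) of the receptors in each coupling class, 1 point per library, KO-labelled in red left of WT in blue, with the number of genes under each class. The Gs class stands at 3732 to 4093 in KO-labelled libraries, mostly from Adcyap1r1, and the Gi/o class is lower there than in WT, while without Ptger3 its libraries overlap between the groups.

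Genes downstream of the receptors were mostly higher. Of 41 genes for G proteins and their effectors, 29 rose and 3 fell, and 9 did not pass (78% called, against 71.1% of all genes tested). Their median was 0.57 on the log2 scale. Among all genes tested, 36.2% rose and 34.9% fell, so the counts in this paragraph describe the lists only. Rock2, for a kinase that sustains contraction, had 28260.5, 29119 and 26802 counts in KO-labelled libraries against 4141, 4635 and 4766 in WT (6.22-fold, adjusted p = 9.56e-08). Akap12, a scaffold for protein kinase A and beta-adrenergic receptors, rose 9.29-fold, Gnb4, for a G protein beta subunit, 4.41-fold, and Prkar2a, for a regulatory subunit of protein kinase A, 4.36-fold. Of 15 genes for receptor kinases, arrestins and accessory proteins, 5 rose and 6 fell, 73.3% called against 71.1% of all genes tested (median 0.0078). Arrb1, for beta-arrestin 1, rose 2.32-fold, with 3419, 3595 and 3491 against 1307, 1621 and 1599.8, while Arrb2, for beta-arrestin 2, fell 4.03-fold, with 324 ± 16.3 against 1306 ± 123 (SD, n = 3 each). The scaffold gene Slc9a3r1 fell 2.84-fold and Arrdc4, for an arrestin-like protein, 2.66-fold.

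Other receptors and ligands of vessels also moved both ways. Of 58 genes, 38 were tested, of which 22 rose and 9 fell, and 7 did not pass. In this list 81.6% were called, against 71.1% of all genes tested, 36.2% upward and 34.9% downward. The median of the 38 was 1.23 on the log2 scale. Edn3, Htr7, S1pr5, P2ry10, P2ry12, P2ry13, Tacr1 and Galr1 rose, and Tacr2 and Mc1r fell, with every library of the lower group under 10. They were tested only because of 1 group, so the filter set their direction, and the counts and the median include them. Apln, for the vasodilator peptide apelin, had 119, 115 and 106 counts in KO-labelled libraries against 3066, 3196 and 2936 in WT and fell 27.0-fold (log2 fold change -4.74, adjusted p = 1.65e-08). Npy1r, for the contracting neuropeptide Y receptor Y1, fell 5.18-fold, and Lpar2, for a lysophosphatidic acid receptor, 5.39-fold. Sphk1, for a kinase that makes sphingosine 1-phosphate, rose 3.11-fold, with 4176, 4048 and 3834 against 1298, 1309 and 1268 (adjusted p = 3.38e-07). Under a filter of 1 CPM in 3 libraries, which tests fewer genes, 10 of these rose.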

How the data were processed

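Messenger RNA of 6 libraries was examined as 1 table. The tools Trimmomatic, HISAT2 and featureCounts and the build mm10 are listed per the submitters' processing notes, with no version. The kit was stranded, per the labels' protocols. Neither the annotation nor the strand setting is given in the sources used here. The authors' deposited table holds a normalized read count signal per gene and library. All deposited signal values divided evenly by 1 unit in each library (100% of values within 0.01), so whole reads were recovered, and the implied factors equalled median-ratio size factors, which assume that most genes do not differ. 0 columns were left unmapped, and no pair of replicates was a duplicate.

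The main test was limma 3.58.1 (R 4.3.3) on log2(value + 1), two-sided, with the variance following the mean, for genes reaching 10 normalized counts in 3 or more libraries, with group as the only term. Log2 fold changes are on that scale, which understates changes of low genes, and folds are ratios of mean normalized counts. Adjusted p-values cover all genes tested. Alternatives were edgeR 4.0.16, which called 11479 genes on the recovered reads, DESeq2 1.42.0, voom, other scalings, filters and pseudocounts, the replicate number as a block and each library left out. The test was checked on simulated data. Exon lengths and overlaps came from GENCODE M21 and coordinates and promoters from RefSeq, both GRCm38, counted from 1. All 51 genes matched RefSeq.

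The genes and lists were chosen with earlier results of these data known. Values in each library are given for members with at least 3-fold differences and a mean of at least 100, the 5 with most reads, ligand and enzyme genes and those whose call changed, and other members were added after their values were seen. In the other lists up to 4 genes with the smallest adjusted p are named, and Adcyap1, Vip, Nppc, Ren1, Arrb1, Pecam1, Cdh5, Egfl7, Kdr, Erg, Myh11, Ptprc and Sox10 were chosen after their values were seen.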

Additional observations from a re-analysis of the deposited data

How the results depend on the processing

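Of the 37 members that passed, 35 kept their call and direction in every alternative run that tested them. The exceptions were Avpr1a and Adra1d. Over the 16 alternatives the members that rose numbered 25 to 28 and those that fell 9 or 10. The filter of 1 CPM moved the median log2 fold change of the members to 0.90 and the other vasoactive genes that rose to 10. Leaving out 1 library at a time gave a median between 0.58 and 0.75. Members that had not passed changed sign without passing: Ptger1 to 0.016 with upper-quartile scaling, 0.013 without KO-labelled replicate 1 and 0.096 without WT replicate 2, P2ry2 to 0.028 with upper-quartile scaling and 0.069 without WT replicate 2, and F2rl1 to 0.035 with edgeR, 0.077 with DESeq2 and 0.33 without KO-labelled replicate 3. With 1 library left out, Ptger1 ran from -0.18 to 0.096, P2ry2 from -0.075 to 0.069 and F2rl1 from -0.43 to 0.33. The cause was not tested. Nppb and Bdkrb2 were not tested under the 1 CPM filter.

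Same-numbered libraries of the groups shared only a number: correlations of their deviations were -0.0045, 0.026 and 0.084. With the replicate number as a block, 11556 genes passed, 28 members rose and 10 fell, the median was 0.61, and Htr2a passed (adjusted p = 0.0263). Depth limits members under 10 counts, which were not tested.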

Other observations

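The log2 fold changes of all genes tested were not symmetric. Between 2 and 3 lay 1277 genes, against 435 between -3 and -2. Among those 1277 genes, WT replicate 2 was the lowest WT library for 78.3%, replicate 1 for 13% and replicate 3 for 8.70%. Among the 4575 genes between 0 and 1 it was the lowest for 27.5%. Of the members tested, 1 lay between 2 and 3 (Adora1) and 4 between 3 and 4. Ptprc of leukocytes (204, 112 and 149.6 counts in KO-labelled libraries, against 31.2, 7.46 and 55.3 in WT) and Sox10 of Schwann cells (27.5, 81.5 and 72.0 against 18.3, 4.98 and 11.1) were also lowest in WT replicate 2. The macrophage markers, which include Ptprc, summed lower in KO-labelled libraries (2411 to 2909.6 against 3601 to 4169), and 7 of them rose and 2 fell. These 2 genes do not stand for their cell types.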
